A study of Mus musculus with 9 samples.

Results

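The secreted frizzled-related proteins are a small family of extracellular Wnt modulators, and the mouse genes Sfrp1, Sfrp2, Sfrp4, Sfrp5 and Frzb (also called Sfrp3) make up the whole of it. They were taken by gene symbol from the array annotation, and each was measured by 1 probe set that carries no other symbol. These are 5 of the 19938 genes measured. RNA was hybridised to 9 arrays, 3 per group. Osteosarcoma was represented by lines 493H, 494H and 716H, 1 array per line, grown from tumours of adult C57BL/6 mice of the genotype Osx-Cre p53fl/fl Rbfl/fl, in which Cre recombinase under the osteoblast-lineage promoter Osx removes floxed p53 and Rb alleles. The labels describe all 3 lines as fibroblastic and p53-/- Rb-/-, and they were harvested subconfluent below passage 8. Lines 493H and 716H came from females and line 494H from a male. The osteoblast group held 3 cultures of Kusa4b10, a stromal line of mouse bone marrow, after 21 days in osteoblastic medium with ascorbate. The pre-osteoblast group held 3 undifferentiated cultures of the same line, and no genotype or strain is given for it. All 6 Kusa4b10 cultures come from a single line, although they are labelled as independent, so their spread is that between cultures. Tumour lines and Kusa4b10 cultures have different origins, which cannot be told apart from tumour state, and the medium and the time in culture cannot be told apart from differentiation.

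Each family member carries a cysteine-rich domain like the one with which Frizzled receptors bind Wnt proteins, followed by a netrin-like domain. The secreted protein can hold Wnt ligands away from their receptors, and several members also bind Frizzled itself, so that signalling through beta-catenin is dampened or, in some settings, enhanced. In bone, Wnt signalling promotes osteoblast formation, and the family is among its extracellular brakes. The promoters of SFRP genes are known targets of DNA methylation in human cancers. The series itself was built around Wif1, another secreted Wnt antagonist, its relation to differentiation and its methylation in osteosarcoma.

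Values are log2 expression levels, so a difference of 1 is a doubling. No detection calls were used, and the level of 1194 olfactory and vomeronasal receptor genes, which bone cells are not known to express, served as a guide to background. The 95th percentile of these genes lay between 6.67 and 6.85 on the 9 arrays. Sfrp1, Sfrp2 and Sfrp4 lay above it on all 9 arrays, Frzb on 5 and Sfrp5 on 0. Probe sets differ in affinity, so levels are compared between samples and not between genes. Array medians over probe sets were 7.43 to 7.56. Correlations over genes were 0.993 to 0.998 among the osteoblast cultures, 0.994 to 0.997 among the pre-osteoblast cultures and 0.982 to 0.987 among the lines. Of 10 measured osteoblast markers, 6 were higher in osteoblasts than in pre-osteoblasts, while 1 was higher in osteosarcoma than in pre-osteoblasts. Of 7 haematopoietic and macrophage markers, Cd68 and Cd14 exceeded the background guide on 9 arrays, Tyrobp on 5, Csf1r on 3, and Ptprc, Adgre1 and Itgam on 0.

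**Figure D1:**
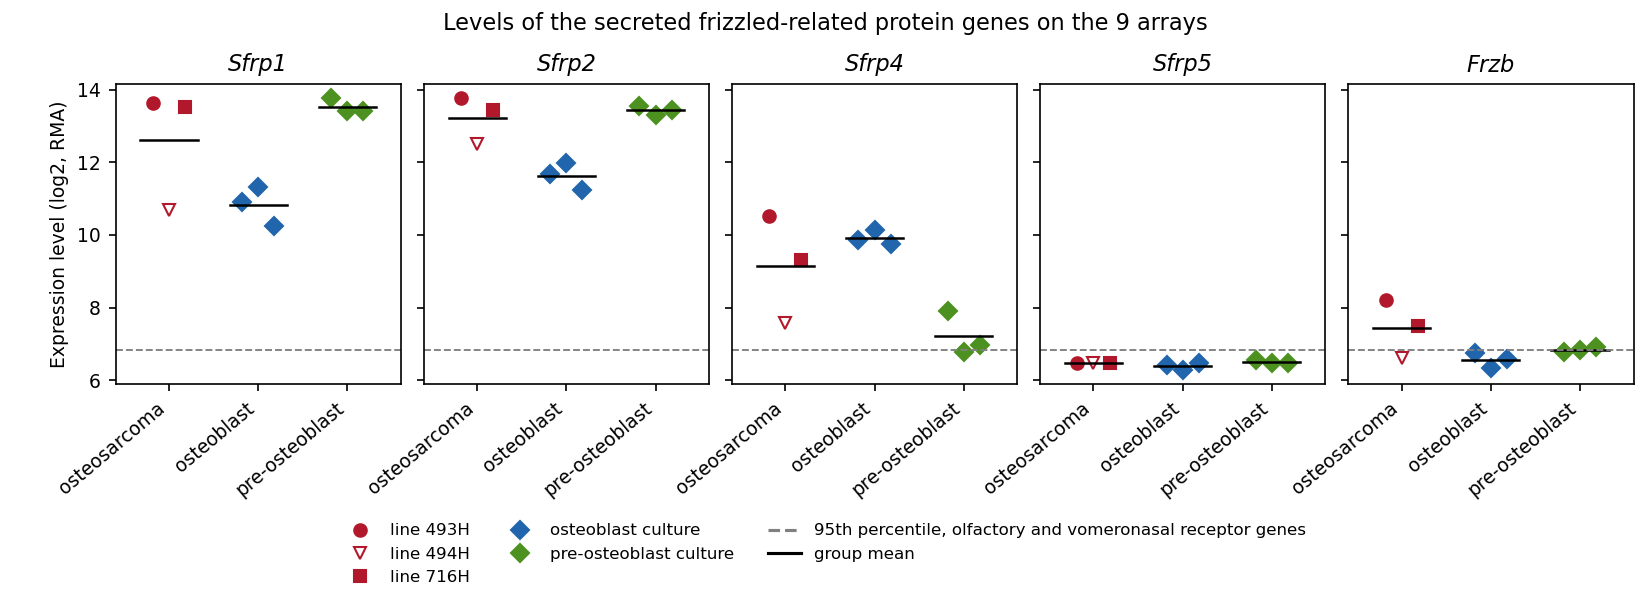
Log2 expression level (vertical axis) of each family member in osteosarcoma lines, osteoblast cultures and pre-osteoblast cultures, 1 symbol per array, with group means as bars and the highest 95th percentile of olfactory and vomeronasal receptor genes (6.85) as a dashed line. Sfrp1 and Sfrp2 are lower in osteoblasts than in pre-osteoblasts, Sfrp4 is higher, and the open triangle of line 494H is the lowest of the 3 lines for Sfrp1, Sfrp2, Sfrp4 and Frzb.

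The first comparison asks how the family changes with differentiation. Sfrp1, an inhibitor whose loss in mice increases trabecular bone, measured 10.92, 11.31 and 10.26 in the osteoblast cultures, against 13.78, 13.42 and 13.40 in the pre-osteoblast cultures. All osteoblast cultures lay below all pre-osteoblast cultures, with a gap of 2.09 between the nearest values. Mean Sfrp1 was 10.83 ± 0.53 in osteoblasts and 13.53 ± 0.21 in pre-osteoblasts (SD, n = 3 each), so it fell by 2.70 on the log2 scale (a 6.51-fold difference, SE 0.71, limma adjusted p = 0.0245). Between cultures, fewer cells that express a gene and less of its RNA per cell cannot be told apart.

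Sfrp2, which modulates Wnt signalling and in mouse also enhances the proteinases that trim procollagen, measured 11.68, 11.97 and 11.23 in osteoblasts, against 13.54, 13.29 and 13.44 in pre-osteoblasts. The groups did not overlap. Its mean was 11.63 ± 0.37 in osteoblasts and 13.43 ± 0.12 in pre-osteoblasts (SD, n = 3 each), and it fell by 1.80 (3.47-fold, SE 0.31, limma adjusted p = 0.00358).

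Sfrp4, whose loss in human causes Pyle disease with thinned cortical bone, went the other way. It measured 9.87, 10.15 and 9.75 in osteoblasts, against 7.91, 6.79 and 6.96 in pre-osteoblasts, so the lowest osteoblast culture stood 1.84 above the highest pre-osteoblast culture. Mean Sfrp4 was 9.92 ± 0.20 in osteoblasts and 7.22 ± 0.60 in pre-osteoblasts (SD, n = 3 each), a rise of 2.70 (6.51-fold, SE 0.65, limma adjusted p = 0.0166). Pre-osteoblast replicates 2 and 3 lay just above the background guide of their arrays (6.75 and 6.84), so this fold cannot be read as RNA amounts.

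Frzb and Sfrp5 did not pass the test. Frzb, first known from cartilage, measured 6.75, 6.34 and 6.60 in osteoblasts, against 6.79, 6.82 and 6.91 in pre-osteoblasts. These groups did not overlap either, but the gap was 0.04 and the difference -0.28 ± 0.34 (SE, limma adjusted p = 0.630, 95% interval -1.06 to 0.50), and all 3 osteoblast cultures lay below the background guide. Sfrp5, an adipokine in mouse that binds Wnt5a, measured 6.41, 6.28 and 6.49 in osteoblasts, against 6.56, 6.49 and 6.49 in pre-osteoblasts. The difference was -0.12 ± 0.06 (SE, limma adjusted p = 0.218). Sfrp5 had the same deposited value, 6.49, on 6 of 9 arrays, including all 3 lines, and 317 of the 19938 genes (1.59%) had 1 value on at least as many arrays. Its probe set therefore gives no measurable difference here, and small changes of Sfrp5 RNA were not detectable.

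In total 1 member rose and 2 fell in osteoblasts, against 26.1% of all genes called, 10.3% higher and 15.8% lower, at the same threshold, and groups did not overlap for 44.2% of all genes. The changes were large for this array set: 0.542% of genes had a larger absolute difference than Sfrp1, 2.15% than Sfrp2 and 0.537% than Sfrp4. The median absolute difference was 1.80 over the 5 members and 0.14 over all genes. In this fit the spread is shared with the osteosarcoma lines, where these genes vary most. The Sfrp1 call was lost when any 1 of the Kusa4b10 arrays except osteoblast replicate 2 was left out (adjusted p between 0.0636 and 0.0892). Sfrp4 missed the threshold when replicate 1 or 2 of the osteoblasts, or 2 or 3 of the pre-osteoblasts, was left out (adjusted p between 0.0517 and 0.0616), while Sfrp2 passed each time. With only the Kusa4b10 cultures in the fit, limma adjusted p was 8.82e-04 for Sfrp1, 0.00103 for Sfrp2 and 0.00124 for Sfrp4.

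Other cell states moved with the same comparison. Of 11 adipocyte markers, 6 were higher in osteoblasts and 0 lower, and their summed level was 14.74 to 15.37 in osteoblasts against 13.56 to 14.03 in pre-osteoblasts (log2 of the summed linear levels). The adipocyte marker Lep exceeded the background guide on 0 arrays. All 9 proliferation markers were lower, with a summed level of 11.90 to 13.03 in osteoblasts against 14.07 to 14.88 in pre-osteoblasts. Of 10 fibroblast, tendon and stromal markers, 4 were higher and 0 lower, with 14.33 to 14.70 in osteoblasts against 12.54 to 13.15 in pre-osteoblasts. Of 7 muscle and myofibroblast markers, 3 were lower and 0 higher, with 12.76 to 13.66 in osteoblasts against 13.89 to 14.02 in pre-osteoblasts. Of 11 chondrocyte markers 2 were higher and 0 lower, of 7 haematopoietic markers 1 was lower (Cd14), of 6 endothelial markers 1 was lower (Egfl7), and of 6 epithelial markers 0 passed. The part of these markers in the differences of Sfrp1, Sfrp2 and Sfrp4 was not tested. Among the osteoblast cultures, replicate 2 had the highest and replicate 3 the lowest Sfrp1, Sfrp2 and Sfrp4. That order held for 768 of the 2181 genes (35.2%) whose range over the osteoblast cultures was at least as wide as that of Sfrp4 (0.40). Proliferation markers averaged 9.62 in osteoblast replicate 2, against 8.62 and 8.46 in replicates 1 and 3. Osteoblast markers had the same order, with 11.81 in replicate 2 against 11.44 and 11.22. Adipocyte markers were instead lowest in replicate 2, with 10.49 against 11.11 and 10.67. The part of these markers in the order of the family was not tested.

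**Figure D2:**
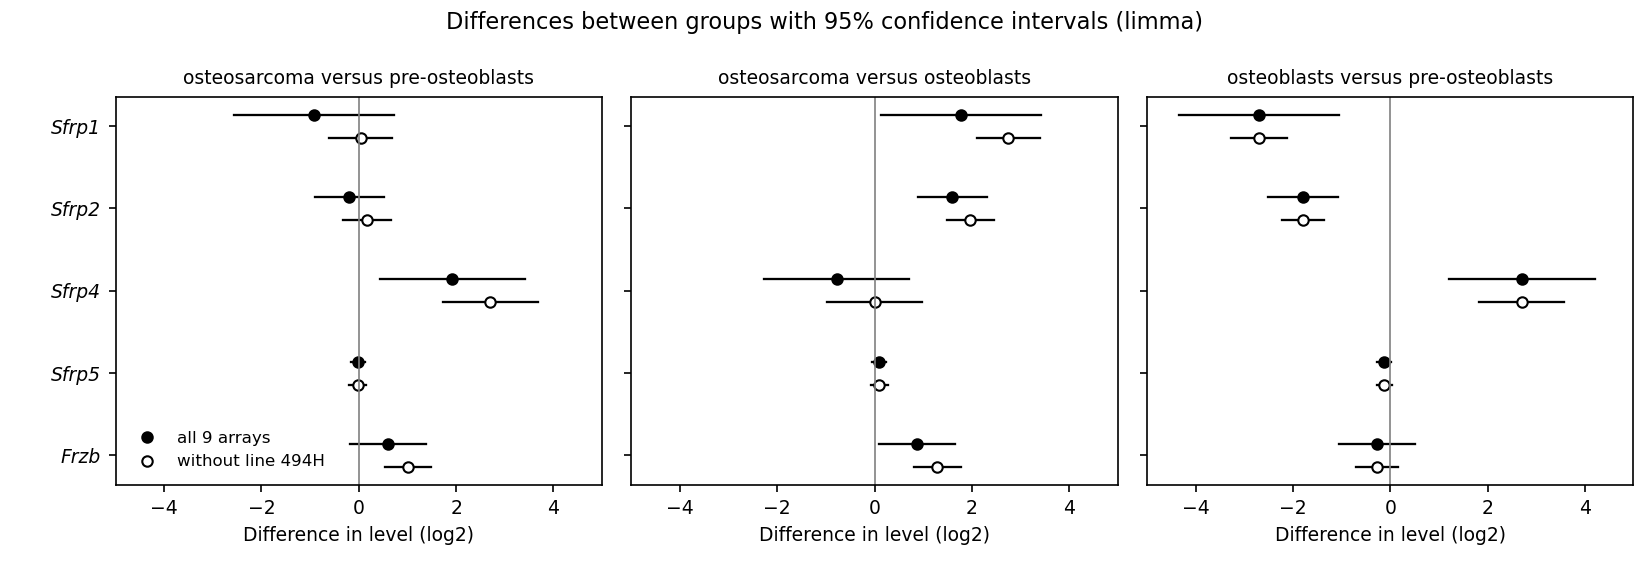
Difference in log2 level (horizontal axis) of each member in the 3 comparisons, with 95% confidence intervals from limma, for all 9 arrays (filled) and without line 494H (open). Between osteoblasts and pre-osteoblasts the intervals of Sfrp1, Sfrp2 and Sfrp4 exclude 0 in both fits. Without line 494H, the lowest line for Frzb, the interval of Frzb excludes 0 in both osteosarcoma comparisons, against 1 of them with all arrays.

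Against osteoblasts, the osteosarcoma lines had more Sfrp2. It measured 13.76, 12.50 and 13.43 in lines 493H, 494H and 716H, against 11.68, 11.97 and 11.23 in the osteoblast cultures. Every line lay above every osteoblast culture, by at least 0.53. The means were 13.23 ± 0.65 in osteosarcoma and 11.63 ± 0.37 in osteoblasts (SD, n = 3 each), a difference of 1.60 (3.03-fold, SE 0.31, limma adjusted p = 0.00579), which passed the threshold in all 17 alternative settings.

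No other member passed in this comparison with all 9 arrays. Sfrp1 measured 13.63, 10.68 and 13.51 in lines 493H, 494H and 716H, against 10.26 to 11.31 in osteoblasts. Lines 493H and 716H lay far above the osteoblast cultures and line 494H among them. The mean was 12.61 ± 1.67 in osteosarcoma and 10.83 ± 0.53 in osteoblasts (SD, n = 3 each), and the difference was 1.78 ± 0.71 (SE, limma adjusted p = 0.106, 95% interval 0.14 to 3.42). Without line 494H it was 2.74 (6.70-fold), and with any 1 array left out 1.27 to 2.74 (limma adjusted p between 5.12e-04 and 0.288). Line 494H was the lowest line for Sfrp1, Sfrp2, Sfrp4 and Frzb in these data. Leaving it out therefore had to raise their differences, and the values without it are not a separate test.

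Frzb measured 8.21, 6.61 and 7.50 in lines 493H, 494H and 716H, against 6.34 to 6.75 in osteoblasts and 6.79 to 6.91 in pre-osteoblasts. Lines 493H and 716H were above all 6 Kusa4b10 cultures, by 1.30 and 0.58, and above the background guide, whereas line 494H was within the osteoblast range and below the guide. The difference from osteoblasts was 0.88 ± 0.34 (SE, limma adjusted p = 0.0950), and 1.29 without line 494H. With any 1 array left out it was 0.49 to 1.29 (limma adjusted p between 0.00316 and 0.230). Since Frzb is known from cartilage, the 11 chondrocyte markers are given beside it. Of these, 0 were higher and 2 lower in osteosarcoma than in osteoblasts, and their summed level was 11.54 to 11.98 in osteosarcoma against 11.86 to 12.55 in osteoblasts. Sox9, Col2a1, Col9a1, Col9a2 and Col11a2 exceeded the background guide on 9 arrays, Col10a1 on 7, Matn3 and Hapln1 on 1 each, and Acan, Matn1 and Chad on 0. Against pre-osteoblasts 1 was higher, the cartilage transcription factor gene Sox9 (0.86, limma adjusted p = 0.0293), and 1 lower, Col10a1 (-2.19, adjusted p = 0.0194), and the summed level in pre-osteoblasts was 11.52 to 11.69. The part of these markers in the values of Frzb was not tested.

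Sfrp4 measured 10.53, 7.59 and 9.32 in lines 493H, 494H and 716H, against 9.75 to 10.15 in osteoblasts, so that line 493H lay above the osteoblast cultures and the other lines below. The difference was -0.78 ± 0.65 (SE, limma adjusted p = 0.445, 95% interval -2.27 to 0.72), and 0.0016 without line 494H. Sfrp5 differed by 0.10 ± 0.06 (SE, limma adjusted p = 0.318).

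With all 9 arrays, 1 member was therefore higher and 0 lower in osteosarcoma than in osteoblasts, against 27.4% of all genes called, 14.7% higher and 12.7% lower, and 38.7% of all genes had groups that did not overlap. Among all genes the split was 2936 higher and 2523 lower, and with each array centred on its median 3682 higher and 2028 lower. Without line 494H, 3 members were higher. All 9 proliferation markers were higher in osteosarcoma (summed level 14.47 to 14.89, against 11.90 to 13.03 in osteoblasts), and 10 of 11 adipocyte markers were lower (11.76 to 13.10, against 14.74 to 15.37). Of 7 muscle and myofibroblast markers, 2 were higher and 0 lower (14.02 to 14.61, against 12.76 to 13.66 in osteoblasts), with Cnn1 at 4.82 and Tagln at 2.03. Of 10 stromal markers 3 were higher and 3 lower, of 10 osteoblast markers 0 were higher and 4 lower, and of 7 haematopoietic markers 1 was higher. The part of these markers in the difference of Sfrp2 was not tested.

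Against pre-osteoblasts, 0 of 5 members passed in either direction, where 23.5% of all genes were called at the limma threshold, 9.96% higher and 13.5% lower. Among all genes the split was 1986 higher and 2700 lower, and with quantile normalization again 2561 higher and 2427 lower. Groups did not overlap for 35.6% of all genes. Sfrp4 had the largest absolute difference of the 5 members here. Its levels of 10.53, 7.59 and 9.32 in lines 493H, 494H and 716H stood against 7.91, 6.79 and 6.96 in the pre-osteoblast cultures. Lines 493H and 716H were above all pre-osteoblast cultures and line 494H within their range. Pre-osteoblast replicates 2 and 3 lay near the background guide, so differences from them cannot be read as RNA amounts. The means were 9.14 ± 1.48 in osteosarcoma and 7.22 ± 0.60 in pre-osteoblasts (SD, n = 3 each), a difference of 1.93 ± 0.65 (SE, limma adjusted p = 0.0683, 95% interval 0.43 to 3.42). Without line 494H, the lowest line, it was 2.70, and with any 1 array left out 1.23 to 2.70 (limma adjusted p between 0.00346 and 0.181). With genes below the median level left out of the test the adjusted p was 0.0393.

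Sfrp1 was 0.92 lower in osteosarcoma than in pre-osteoblasts, with a wide interval (-2.57 to 0.72, limma adjusted p = 0.425). Without line 494H the difference was 0.04. Sfrp2 differed by -0.19 ± 0.31 (SE, limma adjusted p = 0.727, 95% interval -0.91 to 0.52) and by 0.17 without line 494H. For Frzb the difference was 0.60 ± 0.34 (SE, limma adjusted p = 0.265), and 1.01 without line 494H. With any 1 array left out the Frzb difference was 0.21 to 1.01 (limma adjusted p between 0.0107 and 0.639). For Sfrp5 it was -0.02 ± 0.06 (SE, limma adjusted p = 0.844). Both osteosarcoma comparisons use the same 3 lines, and each shares its Kusa4b10 cultures with the comparison of osteoblasts and pre-osteoblasts. Of the 10 stromal markers, 6 were higher in osteosarcoma than in pre-osteoblasts and 0 lower (summed level 13.60 to 14.72, against 12.54 to 13.15 in pre-osteoblasts). Of 11 adipocyte markers 0 were higher and 3 lower, of 7 muscle and myofibroblast markers 1 was higher, Cnn1, and of 9 proliferation markers 0 passed. The part of these markers in the values of Sfrp4 was not tested.

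In Sfrp1, Sfrp2, Sfrp4 and Frzb the lines differed among themselves more than the cultures of either Kusa4b10 group did. Sfrp5 had the same value in all lines. Sfrp1 spanned 2.96 over the lines, and 0.341% of genes had a wider span there. Sfrp4 spanned 2.95 (0.351% of genes wider), Frzb 1.61 (1.88% wider) and Sfrp2 1.26 (3.11% wider). In every one of these 4 genes line 493H was highest, line 716H next and line 494H lowest. On the linear scale, the Sfrp1 signal of line 493H was 7.76 times that of line 494H, with 7.71 for Sfrp4, 3.05 for Frzb and 2.39 for Sfrp2. For line 716H over line 494H the ratios were 7.14 for Sfrp1, 3.32 for Sfrp4, 1.91 for Sfrp2 and 1.85 for Frzb. Frzb in line 494H (6.61) lay below the background guide of that array (6.74), so its ratios cannot be read as RNA amounts. With 1 array per line these values have no replicate check.

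Set against the cultures, line 494H was at the osteoblast level for Sfrp1 (0.15 below the osteoblast mean) and within the pre-osteoblast range for Sfrp4 (0.37 above the pre-osteoblast mean). Its Sfrp2 lay between both groups, 0.87 above the osteoblast mean and 0.92 below the pre-osteoblast mean. It thus had low levels of both Sfrp1 and Sfrp4, which neither Kusa4b10 state showed. Line 493H had the opposite combination, with Sfrp1 within the pre-osteoblast range and Sfrp4 0.39 above the highest osteoblast culture. Line 716H also combined pre-osteoblast levels of Sfrp1 and Sfrp2 with raised Sfrp4, 2.10 above the pre-osteoblast mean.

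The same order of lines held for 10.3% of all genes. Among the 621 genes whose span over the lines was at least that of Sfrp2, 172 (27.7%) had this order and 58.1% were lowest in line 494H, so it is a common pattern among genes that vary between these lines. Stromal markers followed it too, with mean levels of 9.74, 9.51 and 8.98 in lines 493H, 716H and 494H, as did adipocyte markers with 8.02, 7.88 and 7.49. So did endothelial markers (6.95, 6.61 and 6.47), while chondrocyte, muscle, haematopoietic and epithelial markers did not. Among the pathway lists given below, the other secreted Wnt antagonists, the Frizzled receptors and the other netrin-like domain proteins also had this order. The remaining pathway lists did not. Proliferation markers averaged 11.18, 11.22 and 11.62 in the same lines, and osteoblast markers 9.15, 9.64 and 9.29. Their part in the levels of the family was not tested. Line 494H is also the single line from a male, and sex and line cannot be told apart. Over all genes line 494H correlated at 0.984 with line 493H and 0.982 with line 716H, which correlated at 0.987 with each other.

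**Figure D3:**
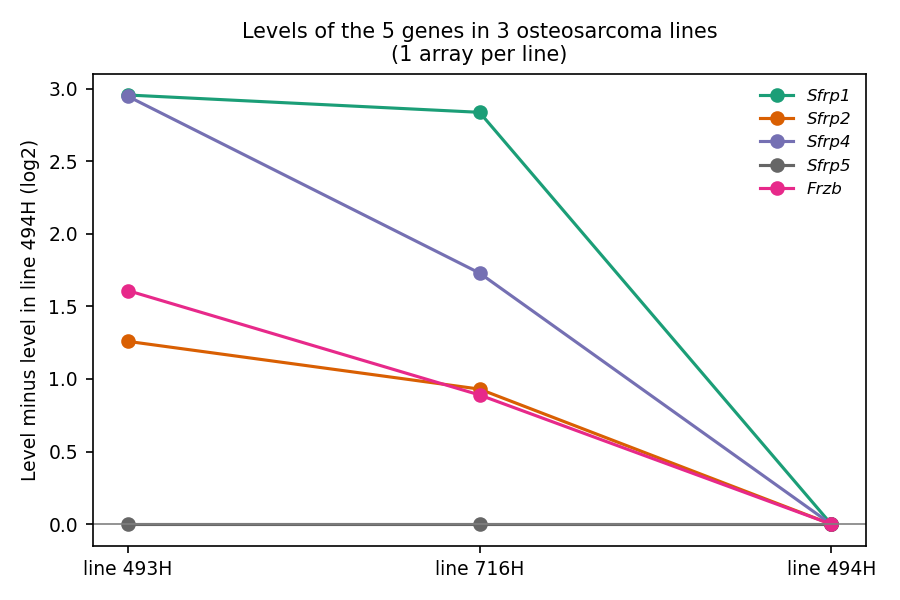
Log2 level of each member in lines 493H, 716H and 494H (horizontal axis) minus its level in line 494H (vertical axis), 1 array per line. Sfrp1, Sfrp2, Sfrp4 and Frzb descend in the same order with spans of 1.26 to 2.96, and Sfrp5 has the same value in all 3 lines.

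Promoter sequences from RefSeq (build GRCm38.p6) were available for 3 of the 5 members, Sfrp2, Sfrp5 and Frzb. They are shown to set a gene above the background guide on all 9 arrays beside one above it on 5 and one on 0. Frzb passed the guide in 2 of 3 lines, in all 3 pre-osteoblast cultures and in 0 osteoblast cultures. Each line gives the 250 bases before the annotated start, 5′ to 3′ on the strand of the gene, with CpG dinucleotides, the sites of DNA methylation, in capitals. The windows are chr3:83766071-83766320 on the plus strand for Sfrp2, chr19:42202253-42202502 on the minus strand for Sfrp5 and chr2:80447397-80447646 on the minus strand for Frzb.
Sfrp2: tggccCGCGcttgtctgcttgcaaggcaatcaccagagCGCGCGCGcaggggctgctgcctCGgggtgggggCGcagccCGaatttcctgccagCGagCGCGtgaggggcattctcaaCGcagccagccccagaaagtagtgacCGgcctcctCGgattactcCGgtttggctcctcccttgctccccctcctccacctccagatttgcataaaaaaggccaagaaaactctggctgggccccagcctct
Sfrp5: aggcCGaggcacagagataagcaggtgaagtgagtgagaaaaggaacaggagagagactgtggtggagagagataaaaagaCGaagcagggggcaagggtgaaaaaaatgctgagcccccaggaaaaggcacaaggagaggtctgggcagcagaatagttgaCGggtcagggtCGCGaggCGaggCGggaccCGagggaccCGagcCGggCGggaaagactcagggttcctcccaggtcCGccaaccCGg
Frzb: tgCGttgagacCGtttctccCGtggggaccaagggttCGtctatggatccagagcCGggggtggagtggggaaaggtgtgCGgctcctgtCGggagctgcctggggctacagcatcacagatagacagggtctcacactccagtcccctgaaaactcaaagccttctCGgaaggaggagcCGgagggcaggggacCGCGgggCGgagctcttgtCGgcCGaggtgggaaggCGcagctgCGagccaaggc
Sfrp2 and Frzb had 16 CpG dinucleotides each and Sfrp5 had 13, against a median of 6 over 32851 promoter windows of this length. More CpG dinucleotides were found in 23.5% of windows than in Sfrp2 or Frzb and in 29.4% than in Sfrp5. The motif CTTTGA, the core recognised by TCF and LEF factors, was searched on both strands and found in Frzb alone, on the strand opposite to the one printed (where it reads tcaaag, starting 95 bases before the start), and in 13.8% of all windows. A match is a description of letters and not a binding site, and methylation was not measured on these arrays.

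The other genes of the pathway were counted from lists of ligands, receptors, antagonists and targets. Of 11 other secreted Wnt antagonists, 3 were higher and 0 lower in osteoblasts than in pre-osteoblasts, where 26.1% of all genes were called. The share called in either direction is near that of all genes, and 8 were not called. By direction, 10.3% of all genes were higher and 15.8% lower. The 3 called genes had the direction of Sfrp4 and not that of Sfrp1 and Sfrp2. Dkk1, which blocks the co-receptors Lrp5 and Lrp6, measured 7.93, 7.79 and 7.34 in osteoblasts, against 6.90, 6.92 and 6.88 in pre-osteoblasts (0.79 ± 0.13, SE, limma adjusted p = 0.00311). Sost, the osteocyte antagonist sclerostin, was at 8.61, 8.21 and 8.25 in osteoblasts, against 7.88, 7.83 and 7.81 in pre-osteoblasts (0.52 ± 0.10, SE, adjusted p = 0.00664). The third was Wif1, which binds Wnt ligands directly. It measured 7.94, 9.95 and 7.97 in osteoblasts, against 7.14, 6.80 and 6.79 in pre-osteoblasts (1.71 ± 0.51, SE, limma adjusted p = 0.0394, a call lost in 6 of 17 alternatives). With any 1 array left out its difference was 1.04 to 2.05. The same 3 genes were lower in osteosarcoma than in osteoblasts, where Sfrp2 was higher and 27.4% of all genes were called. By direction, 14.7% of all genes were higher there and 12.7% lower. Both comparisons use the same osteoblast cultures. Dkk1 differed by -0.66, Sost by -0.48 and Wif1 by -1.74 (limma adjusted p = 0.00671, 0.00916 and 0.0357, the last lost in 7 of 16 alternatives). Wif1 lay below the background guide in lines 493H and 494H and in pre-osteoblast replicate 3. Between osteosarcoma and pre-osteoblasts 0 of 11 passed in either direction, and 1 was higher without line 494H and 1 lower without line 716H.

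Among 18 Frizzled receptors and co-receptors, 4 were higher and 4 lower in osteoblasts than in pre-osteoblasts. Of all genes 10.3% were higher and 15.8% lower there, 14.7% and 12.7% in osteosarcoma against osteoblasts, and 9.96% and 13.5% against pre-osteoblasts. Fzd4, a receptor of the class the family competes with, measured 9.69, 8.89 and 9.36 in osteoblasts, against 7.39, 6.72 and 6.62 in pre-osteoblasts (2.40 ± 0.51, SE, limma adjusted p = 0.00934). Fzd2 fell instead, with 8.81, 9.47 and 8.77 in osteoblasts against 10.38, 10.20 and 10.22 in pre-osteoblasts (-1.25 ± 0.18, SE, adjusted p = 0.00168). Fzd8, another receptor, rose in osteoblasts (0.81 ± 0.15, SE, limma adjusted p = 0.00423). In osteosarcoma against osteoblasts 5 were higher and 4 lower (8 higher without line 494H and 7 without line 493H), among the higher Fzd2 (1.54 ± 0.18, SE, adjusted p = 6.04e-04). Against pre-osteoblasts 3 were higher and 2 lower (5 higher without line 494H). Fzd3 was higher in osteosarcoma than in pre-osteoblasts by 1.46 and Ror2, a receptor for Wnt5a, by 1.26 (limma adjusted p = 4.51e-06 and 8.00e-04). For Fzd3 every Kusa4b10 culture lay below the background guide.

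Of 19 Wnt ligands, 2 were higher in osteosarcoma than in pre-osteoblasts and 2 higher than in osteoblasts, with 0 lower in both (1 lower than in pre-osteoblasts without pre-osteoblast replicate 1 or 2, and 1 lower than in osteoblasts without line 716H or osteoblast replicate 3). Among all genes 9.96% and 14.7% were higher in these comparisons, and 10.3% in osteoblasts against pre-osteoblasts. The counts of higher ligands do not stand out from these shares. Wnt5a, a ligand that mostly signals without beta-catenin, measured 9.31, 8.57 and 9.37 in lines 493H, 494H and 716H, against 6.73, 6.67 and 6.73 in osteoblasts and 5.97, 6.05 and 5.99 in pre-osteoblasts. It was 3.08 ± 0.19 higher in osteosarcoma than in pre-osteoblasts and 2.37 ± 0.19 higher than in osteoblasts (SE, limma adjusted p = 4.67e-05 and 1.06e-04). Every Kusa4b10 culture lay below the background guide for Wnt5a, so these sizes cannot be read as RNA amounts. As in the family, line 494H was the lowest line, although it stayed above all Kusa4b10 cultures. In osteoblasts against pre-osteoblasts 2 ligands were higher and 1 lower, with the higher count at 0 when replicate 1 of the osteoblasts, or 1 or 3 of the pre-osteoblasts, was left out and at 1 without replicate 2 of either group. The lower count was 0 without any 1 of the lines or without osteoblast replicate 1 or 3. In osteosarcoma against pre-osteoblasts the higher count was 4 without line 493H, and 1 when line 716H or replicate 1 or 3 of either Kusa4b10 group was left out. Against osteoblasts it was 1 without osteoblast replicate 1 or 3 and 3 without line 494H.

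Of 17 beta-catenin target and feedback genes, 5 were higher and 1 lower in osteoblasts than in pre-osteoblasts (3 higher without pre-osteoblast replicate 3). The shares of all genes were 10.3% and 15.8% there, 14.7% and 12.7% in osteosarcoma against osteoblasts, and 9.96% and 13.5% against pre-osteoblasts. Tnfrsf19 measured 9.37, 10.87 and 9.21 in osteoblasts, against 7.32, 7.34 and 7.30 in pre-osteoblasts (2.50 ± 0.39, SE, limma adjusted p = 0.00228). In osteosarcoma against osteoblasts 0 were higher (2 without osteoblast replicate 2, and 1 without line 493H or 494H) and 5 lower, among them Tnfrsf19 (-2.06 ± 0.39) and the feedback inhibitor Nkd2 (-2.21 ± 0.38, SE, adjusted p = 0.00522 and 0.00329). Against pre-osteoblasts 3 were higher and 2 lower, with Apcdd1, a membrane inhibitor of Wnt signalling, at 1.47 ± 0.29 and Myc at 1.14 ± 0.14 (SE, limma adjusted p = 0.00727 and 9.34e-04). The 2 lower calls were 0 without line 716H or pre-osteoblast replicate 2 or 3, and 1 without line 493H, replicate 1 of either Kusa4b10 group. The lower count in osteoblasts against pre-osteoblasts was 0 without line 493H, any 1 osteoblast culture or pre-osteoblast replicate 2 or 3.

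**Figure D4:**
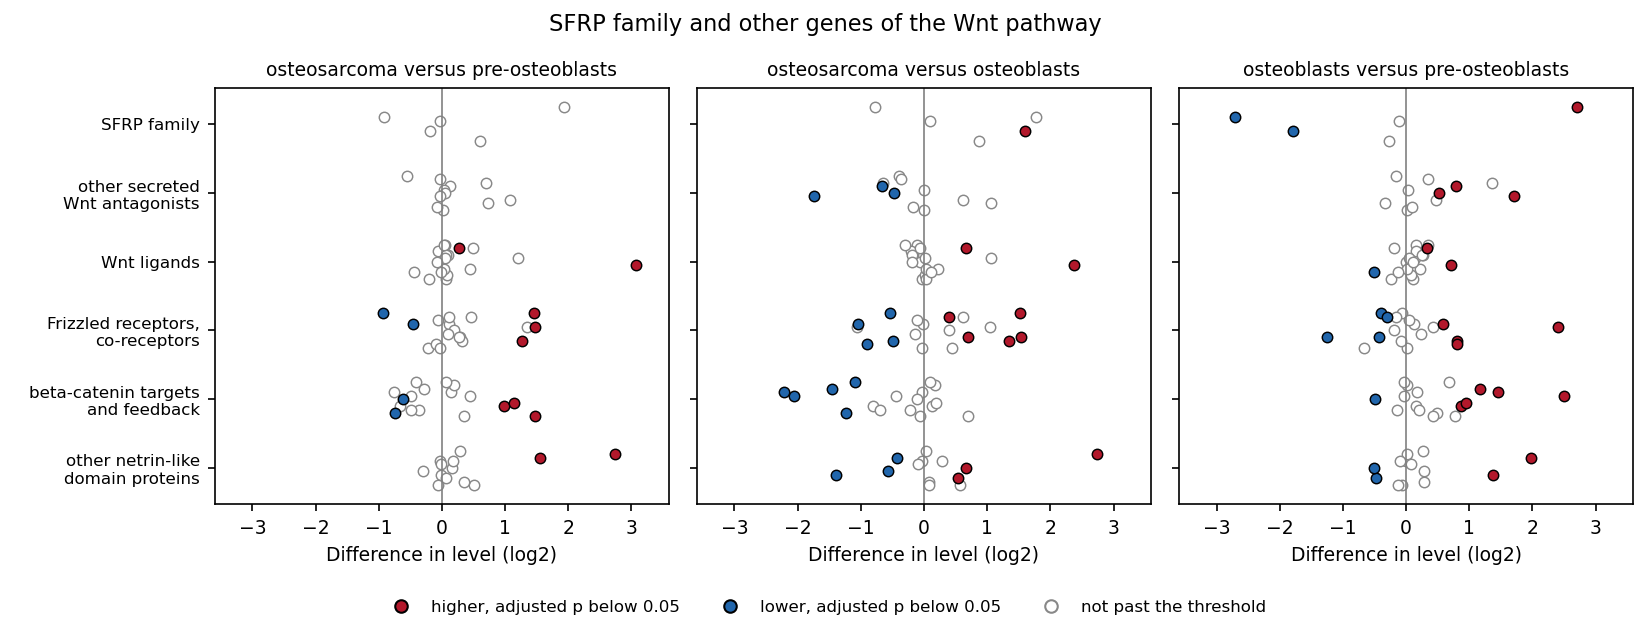
Difference in log2 level (horizontal axis) of the SFRP family and of other genes of the Wnt pathway or with a netrin-like domain (rows), 1 point per gene, in the 3 comparisons; filled points passed limma at adjusted p below 0.05. Between osteoblasts and pre-osteoblasts Sfrp1 (-2.70) lies lowest and Sfrp4 (2.70) highest of all points shown.

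Genes that share a domain with the family were counted in the same way. Of 5 other measured proteins with a frizzled-like cysteine-rich domain, 0 were higher in any comparison (1 in osteoblasts against pre-osteoblasts without line 494H), 1 was lower in osteoblasts than in pre-osteoblasts, and in osteosarcoma 1 was lower than in osteoblasts and 2 lower than in pre-osteoblasts (1 without pre-osteoblast replicate 1 or 3). Of all genes, 26.1%, 27.4% and 23.5% were called in these comparisons. The hedgehog transducer Smo fell by 0.47 in osteoblasts and by 0.50 in osteosarcoma relative to pre-osteoblasts (limma adjusted p = 0.00103 and 8.67e-04). Of 13 other proteins with a netrin-like domain, 2 were higher and 2 lower in osteoblasts than in pre-osteoblasts, 3 and 3 in osteosarcoma against osteoblasts, and 2 and 0 against pre-osteoblasts. In the first of these comparisons the lower count was 0 without osteoblast replicate 1, and it was 1 when replicate 3 of the osteoblasts, or 1 or 2 of the pre-osteoblasts, was left out. In the second it was 1 when line 494H, line 716H, replicate 3 of the osteoblasts or replicate 1 of the pre-osteoblasts was left out, and 2 for each other array left out. Timp3, an inhibitor of metalloproteinases, rose by 1.98 ± 0.13 in osteoblasts (SE, limma adjusted p = 4.66e-05). Pcolce2, which enhances procollagen trimming as Sfrp2 does, measured 10.01, 10.49 and 8.59 in lines 493H, 494H and 716H, against 7.21, 7.21 and 6.45 in osteoblasts and 7.15, 6.86 and 6.84 in pre-osteoblasts. It was higher in osteosarcoma by 2.74 in both comparisons (limma adjusted p = 0.00250 and 0.00313), and in contrast to the family it was highest in line 494H. Of 3 procollagen C-proteinases, the enzymes that Sfrp2 acts on, Tll1 was higher in osteosarcoma than in osteoblasts and pre-osteoblasts (1.80 and 1.96, limma adjusted p = 0.00678 and 0.00572). For Tll1 every Kusa4b10 culture lay below the background guide.

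For the 3 members with a range above 2 over the 9 arrays, the genes with the most similar profile were found by the root mean square difference of levels after each gene was centred on its mean over these arrays. All 9 arrays enter, so the measure describes a shared profile over groups and lines and has no test. Closest to Sfrp1 were the interleukin 1 receptor antagonist Il1rn (0.44), the glycosyltransferase gene Galnt13 (0.49) and the Cdc42 effector gene Cdc42ep2 (0.51), where Sfrp1 itself deviated from its own mean by 1.40. Il1rn measured 11.98, 9.67 and 11.99 in lines 493H, 494H and 716H, 10.34, 10.83 and 10.02 in osteoblasts and 12.85, 12.37 and 12.20 in pre-osteoblasts, with line 494H again apart from the other lines. Closest to Sfrp2 were the potassium channel gene Kcnd1 (0.21), the anticoagulant protein S gene Pros1 (0.24) and Cd248, endosialin, a marker of stromal cells (0.26), against 0.88 for Sfrp2 around its own mean. Closest to Sfrp4 were the small leucine-rich proteoglycan gene Prelp (0.39), Ms4a4d (0.41) and the Wnt receptor gene Fzd4 (0.42), against 1.37 for Sfrp4. Fzd4 was at 9.41, 7.18 and 8.16 in lines 493H, 494H and 716H, in the same order of lines as Sfrp4. Its difference between osteosarcoma and pre-osteoblasts was 1.34 ± 0.51 (SE, limma adjusted p = 0.0992) and 1.88 without line 494H, its lowest line. With any 1 array left out it was 0.76 to 1.88 (limma adjusted p between 0.0140 and 0.241).

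**Figure D5:**
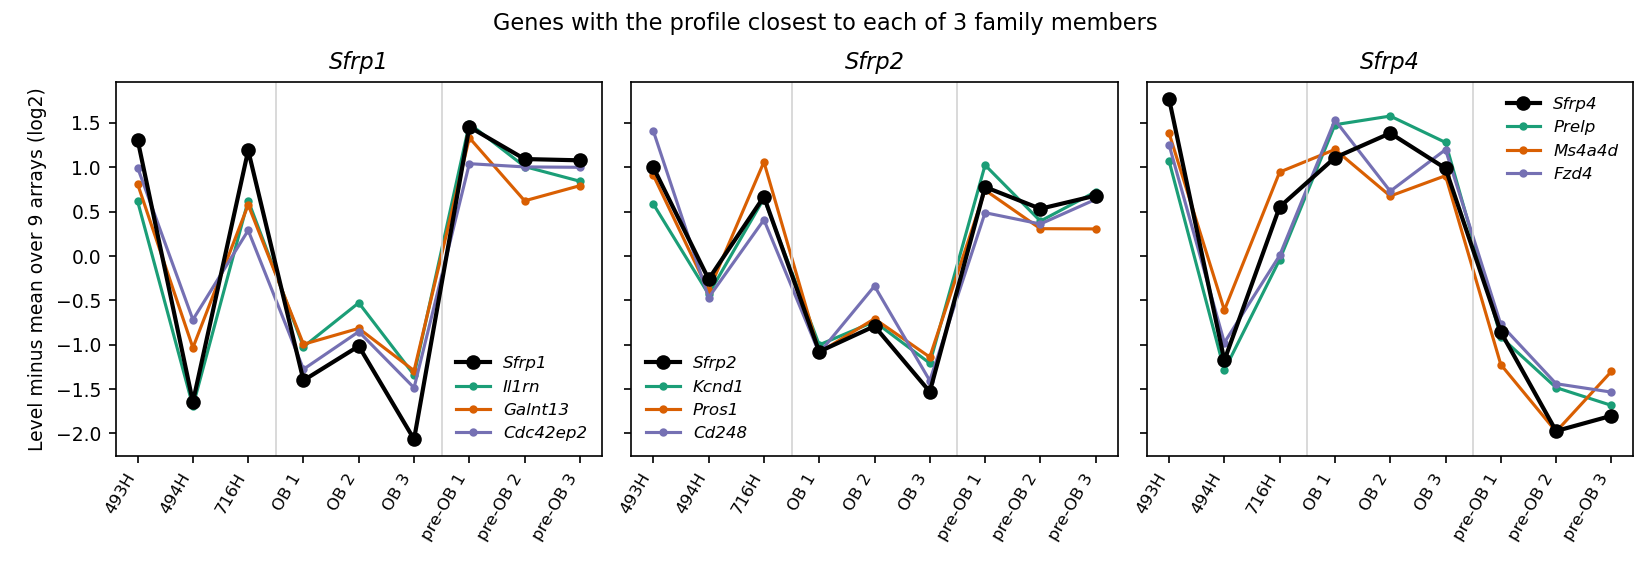
Log2 level minus the mean over the 9 arrays (vertical axis) of Sfrp1, Sfrp2 and Sfrp4 (black) and of the 3 genes with the smallest root mean square difference to each, by array (OB, osteoblast culture; pre-OB, pre-osteoblast culture). In each panel the profiles share the drop in line 494H relative to lines 493H and 716H. The genes were chosen for likeness on all 9 arrays, so a shared drop follows from the choice.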

How the data were processed

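Gene expression was measured on 9 arrays of biotin-labelled total RNA, 3 osteosarcoma lines, 3 osteoblast cultures and 3 pre-osteoblast cultures. The values deposited by the authors are log2 levels per probe set made with RMA; this and the build mm9 are given per the submitters' processing notes. RMA corrects background, normalizes arrays and summarises probes, and no version of it is named. Differences near background are compressed by it, and its normalization makes each difference relative to the other genes. Of 35556 probe sets, 21789 had 1 gene symbol in the platform annotation, 1621 several and 12146 none; for genes with several probe sets the one with the highest mean was used, which left 19938 genes. The test was limma (version 3.58.1, under R 4.3.3), fitted to the 3 group means of all arrays, two-sided and with no filter. Benjamini-Hochberg adjustment ran over the 19938 genes, with a threshold of 0.05. No pair of arrays within a group shared more than 4.33% of its values. Alternatives were filters on dim genes, the mean of probe sets, quantile normalization again, centring, only the compared groups, 1 weight per group, trended and robust moderation, a replicate block and leaving out each array. The pipeline was tested on simulated data. The members and lists were chosen with earlier results of these data known. All members are named; other named genes were drawn from the 3 largest called differences and the largest other one per list and comparison, and from the 3 most similar genes per member. Some genes of the lists are not analysed here. The number of arrays limits the precision.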

Additional observations from a re-analysis of the deposited data

How the results depend on the processing

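Each alternative setting changed 1 choice. Sfrp2 kept its call and direction under all 18 settings run between osteoblasts and pre-osteoblasts and all 17 run for osteosarcoma against osteoblasts. With genes below the median level left out, Sfrp4 passed between osteosarcoma and pre-osteoblasts (1.93, limma adjusted p = 0.0393), which made 1 member higher. Such a filter changes both the number of genes in the adjustment and the moderation of their spread. The difference of Sfrp5 between these groups turned to 0.033 with quantile normalization again and 0.028 with centred arrays; Sfrp5 and Frzb were not tested in that filter. With any 1 array left out, the other differences between osteosarcoma and pre-osteoblasts were -1.44 to 0.042 for Sfrp1, -0.46 to 0.17 for Sfrp2, 1.23 to 2.70 for Sfrp4 and 0.21 to 1.01 for Frzb, with 0 to 2 members higher. Between osteosarcoma and osteoblasts they were 1.27 to 2.74 for Sfrp1, -1.47 to 0.0016 for Sfrp4 and 0.49 to 1.29 for Frzb. There 1 to 3 members were higher, against 2211 to 3143 of all genes. Between osteoblasts and pre-osteoblasts the differences were -2.94 to -2.42 for Sfrp1 and 2.49 to 3.05 for Sfrp4. There 0 to 1 members were higher and 1 to 2 lower, against 1414 to 2315 and 2324 to 3566 of all genes. The cause of these changes was not tested. Among all genes, those higher in osteosarcoma than in pre-osteoblasts numbered 1225 to 2117 with any 1 array left out (1225 without pre-osteoblast replicate 3), 2561 with quantile normalization again and 2419 with centred arrays, against 1986. Osteoblast and pre-osteoblast replicates share numbers, but the deviations of equal numbers correlated at 0.15, 0.18 and 0.03 over genes, and osteoblast replicate 3 correlated better with pre-osteoblast replicate 1 (0.08), so they are not treated as pairs. With the replicate block, Sfrp1, Sfrp2 and Sfrp4 had adjusted p of 0.00182, 0.00314 and 0.00325, and among all genes 2309 were higher and 3574 lower, against 2049 and 3153 without it. Of 49 called differences of the named pathway genes, 36 passed under every alternative, 13 were lost under at least 1 and 0 reversed. Levels near or below the background guide limit what could be seen. This holds for Sfrp5, for Frzb outside lines 493H and 716H, and for Sfrp4 in pre-osteoblast replicates 2 and 3. It also holds for Wnt5a, Fzd3 and Tll1 in the Kusa4b10 cultures, and for Wif1 in lines 493H and 494H.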
